A study of Rattus norvegicus with 9 samples.

Results

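The genes described here are 10 angiogenic and vasoactive factors: Vegfa, Vegfb, Pdgfa, Pdgfb, Nrp1, Edn1, Ece1, Adm, Nos2 and Angpt2. They were taken by symbol from a table of read counts for 28343 genes in retinal microglia of control and diabetic rats. Of the 10, 9 had a row in the table, 8 had a count in all 9 libraries and enough counts to be tested, and Angpt2 had a count in 7 libraries and was too low to test. Nos2 was not analysed here. The tested genes numbered 11748 in all.

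Microglia are the resident macrophages of the retina, and they lie close to its capillaries. VEGF-A drives the growth and leakiness of retinal vessels through the receptors Flt1 and Kdr, with the neuropilins Nrp1 and Nrp2 as co-receptors, and VEGF-B binds Flt1. The PDGF ligands act on Pdgfra and Pdgfrb, and PDGF-B recruits pericytes to capillaries. Endothelin-1, the peptide made from Edn1 after cleavage by the protease Ece1, constricts vessels through Ednra and Ednrb. Adrenomedullin, encoded by Adm, dilates vessels through the receptor Calcrl paired with Ramp2 or Ramp3, and the inducible nitric oxide synthase Nos2 makes the dilator nitric oxide. Angiopoietin-2 is a ligand of the receptor Tek and loosens the contact between endothelial cells and pericytes. Leakage and new vessel growth are hallmarks of diabetic retinopathy.

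All rats were of the Dark Agouti strain and entered the experiment at 8 to 10 weeks of age. The diabetic group (4 libraries, numbered 1, 2, 4 and 5) received streptozotocin (STZ), which destroys the insulin-producing cells of the pancreas, at 55 mg/kg after a 12 h fast, and 2 units of the insulin Protaphane whenever blood glucose passed 30 mmol/l. The control group (5 libraries, numbered 1, 3, 4, 5 and 6) also had a 12 h fast. It received citrate buffer and no STZ, and had normal blood glucose per the labels. At 4 weeks, papain-digested whole retinas were stained for CD11b, the positive cells were collected by FACS, and their RNA was amplified with a SmartSeq v4 kit. CD11b marks microglia and other myeloid cells alike, so the gate could hold blood-derived and border macrophages. The comparison asked how gene expression of retinal microglia differs early in diabetes. The labels do not say that each library was 1 rat, and the p-values measure the spread between these libraries.

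Total counts were 9156591 to 11332823 in control and 6228756 to 9629829 in diabetic libraries. Levels are given as normalised CPM, in which each gene's count is scaled to its library's total after correction by TMM (trimmed mean of M values). The microglia markers took 2.21% to 3.08% of the counts in control and 2.64% to 2.81% in diabetic libraries, with 10 of 11 detected and Siglech at 0, and Cx3cr1 stood at 1669 to 2540 and 2130 to 2535 CPM. Endothelial markers (9 of 9 detected) took 0.00246% to 0.0196% and 0.00355% to 0.00623%, and Cdh5 stood at 15.7 to 28.6 and 10.9 to 20.5 CPM. Mural cell markers (10 of 10) took 0.00814% to 0.0181% and 0.00840% to 0.0122%, a sum carried mostly by Cspg4 (mean 102 and 87.0 CPM). Of the 7 tested mural markers, 7 had a log2 difference below 0 (median -1.80), as had 5843 of all 11748 tested genes. Control 1 was the highest control for Pdgfrb, Rgs5, Kcnj8 and Abcc9. By median the diabetic group was higher for Pdgfrb (2.04 and 2.08 CPM), Rgs5 (0.753 and 1.04 CPM) and Abcc9 (0.968 and 1.37 CPM). It was lower for Kcnj8, Cspg4, Tagln and Myh11. By edgeR, 2 of the 7 had an unadjusted p under 0.05, against 18.9% of all tested genes. They were the contractile genes Tagln (-2.13, unadjusted p = 0.00204, adjusted p = 0.1003) and Myh11 (-1.55, unadjusted p = 0.0124, adjusted p = 0.159), both named after their values were seen. Rgs5 stood at 0 to 11.7 and 0.159 to 2.15 CPM, and Acta2 at 0 to 0.851 and 0 to 0.307 CPM. Müller glia and astrocyte markers (9 of 10, Pax2 at 0) took 0.212% to 0.258% and 0.204% to 0.239%. Photoreceptor markers (9 of 9) took 0.0243% to 0.132% and 0.0375% to 0.195%, and neutrophil and monocyte markers (7 of 9, Ccr2 and Mpo at 0) took 0.0277% to 0.0399% and 0.0333% to 0.0393%. These summed shares overlap, but by edgeR all 7 tested neutrophil and monocyte markers had an unadjusted p under 0.05. Of these, 6 were higher and 1 lower in diabetic libraries, with a median log2 difference of 2.05. Inner retinal neuron markers (12 of 12) took 0.00374% to 0.00668% in controls and 0.00526% to 0.0166% in the diabetic group. Border macrophage markers (8 of 8) took 0.0324% to 0.0747% and 0.0652% to 0.147%. By edgeR, 7 of 9 tested inner retinal neuron markers (5 higher, 2 lower) and 4 of 8 border macrophage markers (all higher) had an unadjusted p under 0.05. For endothelial, Müller glia and astrocyte, photoreceptor and microglia markers it was 1 of 6, 3 of 8, 0 of 9 and 3 of 10, none of them higher. No marker on these lists had an adjusted p under 0.05. The level of a gene in sorted bulk RNA cannot tell fewer cells of a type from less RNA per cell.

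Controls 4 and 6 stood apart from the other libraries. A list of immediate-early and heat-shock genes that respond to cell isolation (23 of 23 genes detected, Fos, Jun and Hspa1a among them) took 2.57% and 2.99% of their counts. In controls 3, 5 and 1 the same list took 0.524%, 0.967% and 1.12%. The 4 diabetic libraries ran from 1.42% to 2.38%. No control library therefore had a share inside the diabetic range. The difference is given with and without controls 4 and 6 for the 8 tested factors and for Nrp2, Slc7a2, Hbegf, P4ha1, Vhl, Hif1a, Pfkfb3 and Pfkfb4.

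The promoters of 3 factors are shown because these genes varied most over the 9 libraries among the tested 8 and had their highest 2 control values in controls 4 and 6. Each run is the 250 bases before the start site in RefSeq on the build GRCr8, 5′ to 3′ along the gene's strand. Edn1 lies at chr17:22666688-22666937 on the minus strand, Adm at chr1:174179950-174180199 on the plus strand, and the first of the 2 Vegfa start sites at chr9:22452604-22452853 on the plus strand. Capitals mark the letters ACGTG, the core of hypoxia response elements, read on either strand.
Edn1: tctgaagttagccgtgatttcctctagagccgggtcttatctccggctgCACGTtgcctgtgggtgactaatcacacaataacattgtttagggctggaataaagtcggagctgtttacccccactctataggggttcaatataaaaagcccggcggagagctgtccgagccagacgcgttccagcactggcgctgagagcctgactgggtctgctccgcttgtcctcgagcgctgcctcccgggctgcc
Adm: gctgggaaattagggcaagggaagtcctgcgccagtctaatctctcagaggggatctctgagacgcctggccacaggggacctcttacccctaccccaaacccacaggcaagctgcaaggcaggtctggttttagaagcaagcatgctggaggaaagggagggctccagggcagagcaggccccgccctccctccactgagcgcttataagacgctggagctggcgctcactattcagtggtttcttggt
Vegfa: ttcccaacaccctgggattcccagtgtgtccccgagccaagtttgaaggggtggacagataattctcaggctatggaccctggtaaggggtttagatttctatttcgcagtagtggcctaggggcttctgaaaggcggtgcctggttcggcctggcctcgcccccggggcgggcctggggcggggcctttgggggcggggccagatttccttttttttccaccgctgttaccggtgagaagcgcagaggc
Of the 8 factors with a promoter in the table, for 9 start sites in all, Edn1 alone held ACGTG in its window. It stood there on the opposite strand, as CACGT, at 201 to 197 bases before the start. Among all 33469 promoters of the same length, 16.6% held ACGTG on either strand. TGANTCA, the consensus letters of the AP-1 site to which Fos and Jun bind, had an exact match in 0 of the 9 windows and in 6.34% of all promoters. Sites that depart from these letters were not searched for, so the 0 does not show that Fos and Jun have no site there. No match of the one motif therefore overlaps the other, and a match describes the sequence only. Sequence beyond these 250 bases was not searched, so the lack of a match holds for the windows alone and not for the gene.

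By edgeR's quasi-likelihood test, 0 of the 8 tested factors passed the adjusted threshold of 0.05 between the groups, where 0.0681% of all tested genes did (0.0426% higher and 0.0255% lower in diabetic libraries). At an unadjusted p under 0.05 the count was 0 of 8 against 18.9% of all tested genes (8.94% higher and 10% lower). The diabetic and control values overlapped for all 8, whereas they did not overlap for 8.44% of tested genes (4.27% higher and 4.16% lower). DESeq2, limma-voom and edgeR's likelihood-ratio test also gave 0 of 8 past the adjusted threshold. The log2 fold change, diabetic minus control, was above 0 for Vegfb and below 0 for the other 7, with a median of -0.15 against 0.0017 over all tested genes.

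**Figure D1:**
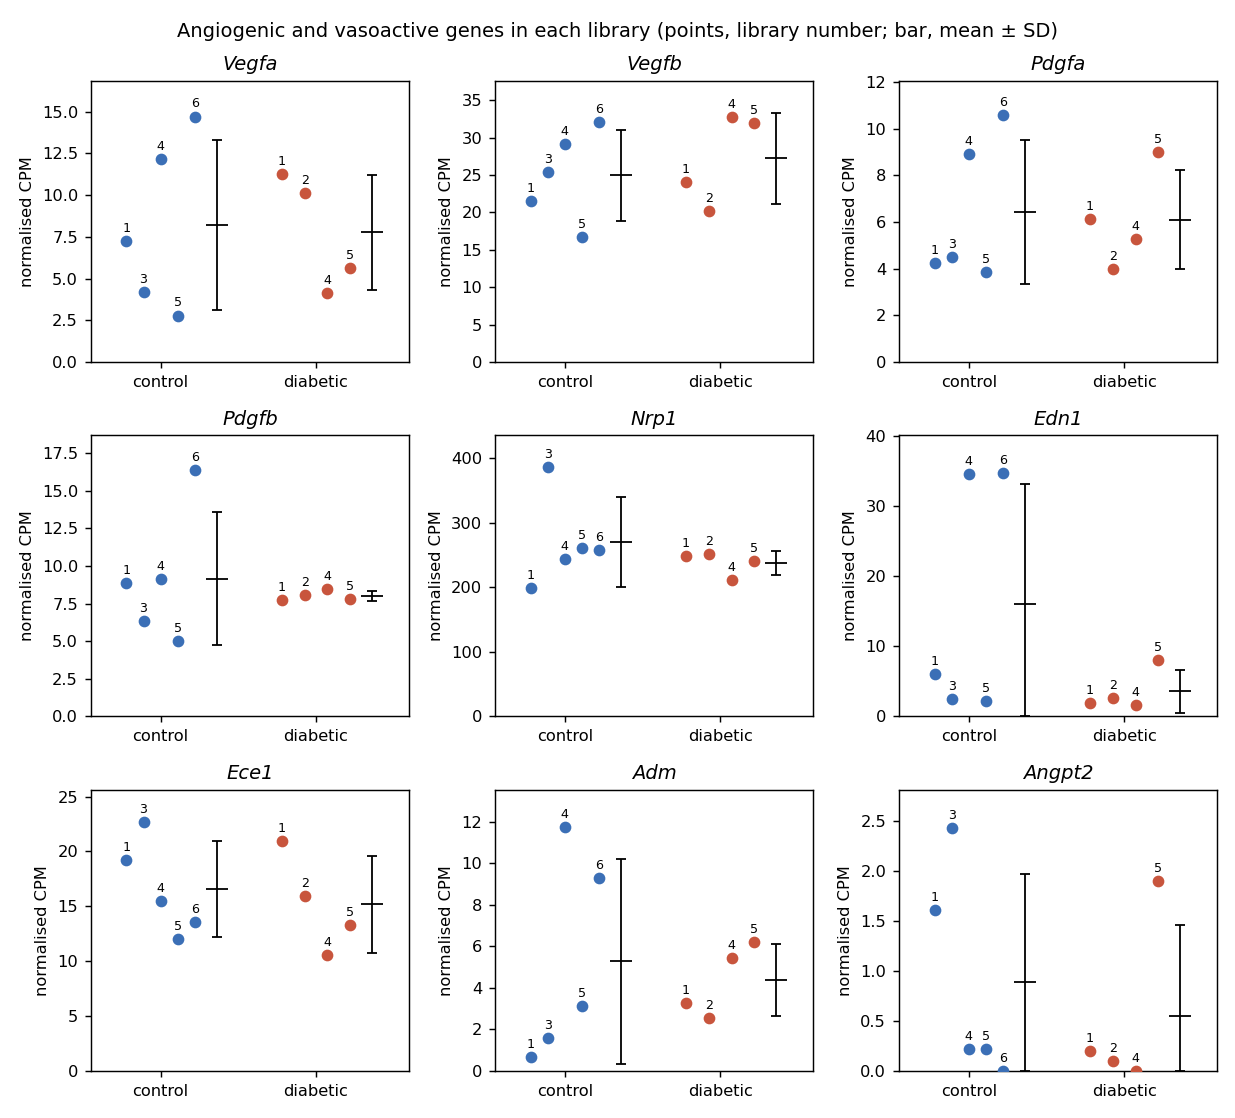
Normalised CPM (vertical axis, from 0) of the 9 measured factors in each control (blue) and diabetic (red) library, marked by its number, with the mean and SD of each group as a bar whose lower arm stops at 0. Controls 4 and 6 are the highest 2 control libraries for Vegfa, Vegfb, Pdgfa, Pdgfb, Edn1 and Adm, and the 2 groups overlap in every panel.

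Among the growth factors, Vegfa was counted at 26 to 114 reads in control and 26 to 114 in diabetic libraries. Its values in controls 1, 3, 4, 5 and 6 were 7.28, 4.17, 12.2, 2.79 and 14.7 CPM, and those in diabetic 1, 2, 4 and 5 were 11.3, 10.1, 4.15 and 5.61 CPM. The highest were controls 4 and 6, diabetic 1 and 2 came next, and all 4 diabetic values lay inside the control range. The means were 8.22 ± 5.11 (SD, n = 5) and 7.78 ± 3.44 CPM (SD, n = 4), a log2 difference of -0.06 (SE 0.50, 95% interval -1.04 to 0.93, edgeR adjusted p = 0.962). The interval covers a difference of up to about 1 log2 unit either way.

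Vegfb, the ligand of Flt1 alone among the VEGF receptors, was steadier than Vegfa. It stood at 21.5, 25.4, 29.2, 16.7 and 32.1 CPM in controls 1, 3, 4, 5 and 6 and at 24.1, 20.2, 32.7 and 31.9 CPM in diabetic 1, 2, 4 and 5. Diabetic 4 lay above every control, and the other 3 diabetic values were inside the control range. The difference was 0.12 (SE 0.21, interval -0.28 to 0.53, edgeR adjusted p = 0.758).

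The co-receptor Nrp1, a surface protein shared by VEGF-A and the class 3 semaphorins, had 1993 to 4450 reads in control and 1326 to 2509 in diabetic libraries. Its values were 199.6, 386, 244, 261 and 257 CPM in controls 1, 3, 4, 5 and 6, and 248, 251, 211 and 241 CPM in the diabetic libraries. Control 3 stood above the rest, and the diabetic values sat close together within the control range (CV 7.64% against 25.8%). The difference was -0.18 (SE 0.17, interval -0.51 to 0.15, edgeR adjusted p = 0.541), so the data bound any change of Nrp1 more tightly than that of Vegfa. On Rnor6 the reference transcript of Nrp1 (ENSRNOG00000010744) spans chr19:61334168-61485858 on the plus strand. The deposited assemblies placed transcripts there both on the gene's strand and off it in 9 of 9 libraries. Off it means the opposite strand or no assigned strand, which were not told apart. Whether the counting used strand is not given in the sources used here.

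Of the VEGF receptors, Flt1 had 21 to 163 reads in control and 42 to 59 in diabetic libraries (log2 difference -0.49, edgeR adjusted p = 0.664). Kdr had 137 to 353 and 102 to 487 reads (0.04, edgeR adjusted p = 0.956). The second neuropilin, Nrp2, stood at 42.0 ± 20.4 (SD, n = 5) and 23.4 ± 2.74 CPM (SD, n = 4), a difference of -0.84 (SE 0.40, unadjusted p = 0.0335, edgeR adjusted p = 0.229). Its 2 highest values were again in controls 4 and 6. Without them the difference was -0.26 (edgeR adjusted p = 0.541), and with the cell isolation share as a covariate it was -1.05 (edgeR adjusted p = 0.0066). In the covariate fit 13.8% of all tested genes passed the threshold, 8.67% as lower in diabetic libraries.

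Pdgfa, the main ligand of Pdgfra, stood at 4.25, 4.52, 8.93, 3.86 and 10.6 CPM in controls 1, 3, 4, 5 and 6. In diabetic 1, 2, 4 and 5 it stood at 6.13, 3.99, 5.26 and 9.01 CPM. The control values fell into a low set of 3 and a high pair, controls 4 and 6, and the diabetic values lay between the lowest and highest control. The difference was -0.06 (SE 0.36, interval -0.77 to 0.64, edgeR adjusted p = 0.937).

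Pdgfb stood at 8.88, 6.34, 9.15, 5.03 and 16.4 CPM in the controls in the same order, and at 7.71, 8.07, 8.45 and 7.81 CPM in the diabetic libraries. Control 6 was the highest library, and the diabetic values were close to each other, with a CV of 4.13% against 48.0% in control. The difference was -0.19 (SE 0.30, interval -0.78 to 0.41, edgeR adjusted p = 0.75), and it was 0.12 without control 6. Their receptors were scarce. Pdgfra had 18 reads over all 9 libraries and was not tested. Pdgfrb, a pericyte gene, had 0 to 189 reads in control and 2 to 28 in diabetic libraries (-1.80, edgeR adjusted p = 0.448), and it is itself 1 of the mural cell markers.

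Edn1 had the widest spread of the 8 tested factors and the largest difference between the groups. It was counted at 64, 28, 322, 20 and 269 reads in controls 1, 3, 4, 5 and 6, which correspond to 6.05, 2.43, 34.6, 2.14 and 34.7 CPM. In diabetic 1, 2, 4 and 5 it had 20, 26, 10 and 81 reads, or 1.98, 2.66, 1.59 and 8.11 CPM. Controls 4 and 6 stood far above the other 7 libraries, diabetic 1 and 4 lay below every control, and diabetic 2 and 5 lay within the control range. The control mean was 16.0 ± 17.1 CPM (SD, n = 5) and the diabetic mean 3.58 ± 3.05 CPM (SD, n = 4). The difference was -2.11 (SE 1.24, interval -4.54 to 0.32), with an unadjusted p of 0.0881 and an edgeR adjusted p of 0.323.

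The Edn1 difference rested on controls 4 and 6. Without them it was 0.02 (SE 0.61, interval -1.17 to 1.21, edgeR adjusted p = 0.991), with 3 controls at 2.14 to 6.05 CPM beside 4 diabetic libraries at 1.59 to 8.11 CPM. With the cell isolation share as a covariate over all 9 libraries it was -2.40 (SE 0.63, interval -3.63 to -1.17), and Edn1 passed the threshold (edgeR adjusted p = 0.00776). In that fit 13.8% of all tested genes passed, 8.67% as lower in diabetic libraries. The diabetic libraries held more of the isolation list than controls 1, 3 and 5, and Edn1 in diabetic 1, 2 and 4 was at the level of controls 3 and 5. On endothelial markers, controls 4 and 6 held 0.00292% and 0.00246% of counts, the lowest shares of the 5 controls. The part of the isolation response or of endothelial RNA in the Edn1 values was not tested. The authors' deposited table gave Edn1 a log2 fold change of -1.93, a p of 0.00586 and an adjusted p of 0.126.

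**Figure D2:**
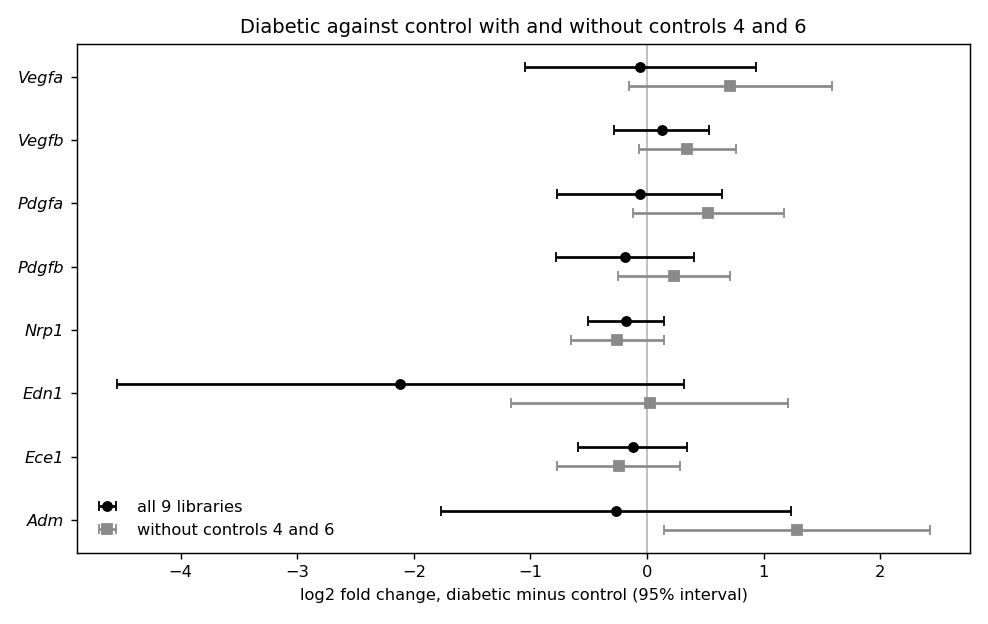
Log2 fold change of each tested factor, diabetic minus control (horizontal axis), with its 95% interval, from all 9 libraries (black circles) and without controls 4 and 6 (grey squares). Every interval from all 9 libraries includes 0; without controls 4 and 6, Edn1 moves from -2.11 to 0.02 and Adm from -0.26 to 1.29.

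The reference transcript of Edn1 (ENSRNOG00000014361) spans chr17:22137324-22143324 on the minus strand of Rnor6. The authors' assemblies held a transcript at this locus in 6 libraries, controls 1, 3, 4 and 6 and diabetic 2 and 5, which are the 6 with the most reads. In 4 of them transcripts lay both on the gene's strand and off it, and in control 3 and diabetic 2 off it alone. Since off it includes transcripts with no assigned strand, an overlapping transcript of the opposite strand is not shown. Whether part of the reads belong to one was not tested.

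Ece1, which cleaves the endothelin precursor, was even across libraries. It stood at 19.2, 22.7, 15.5, 12.0 and 13.6 CPM in controls 1, 3, 4, 5 and 6 and at 21.0, 15.9, 10.5 and 13.3 CPM in diabetic 1, 2, 4 and 5. Control 3 was the highest and diabetic 4 the lowest, so Ece1 was not high in the libraries with the most Edn1. The difference was -0.12 (SE 0.24, interval -0.59 to 0.34, edgeR adjusted p = 0.792).

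Of the endothelin receptors, Ednra, the constrictor receptor of smooth muscle, had 33 reads in all and was not tested. Ednrb had 71 to 301 reads in control and 106 to 249 in diabetic libraries (0.27, edgeR adjusted p = 0.691). Of the other endothelin ligands, which were named after their values were seen, Edn2 had 0 reads in every library and Edn3 had 419 to 848 and 371 to 626 (-0.12, edgeR adjusted p = 0.563).

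Adm was the least counted of the tested factors. Its reads were 7, 18, 109, 29 and 72 in controls 1, 3, 4, 5 and 6, or 0.662, 1.56, 11.7, 3.11 and 9.29 CPM. Diabetic 1, 2, 4 and 5 had 33, 25, 34 and 62 reads, or 3.26, 2.55, 5.42 and 6.21 CPM. Again controls 4 and 6 were the highest and controls 1 and 3 the lowest, with all diabetic values in between. The means were 5.27 ± 4.94 (SD, n = 5) and 4.36 ± 1.73 CPM (SD, n = 4), a difference of -0.26 (SE 0.77, interval -1.76 to 1.24, edgeR adjusted p = 0.871).

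The sign of the Adm difference turned without controls 4 and 6. It was then 1.29 (SE 0.58, interval 0.15 to 2.43, unadjusted p = 0.0269, edgeR adjusted p = 0.273). In that fit 7.2% of all tested genes had an unadjusted p under 0.05 and were higher in diabetic libraries. The reference transcript of Adm (ENSRNOG00000027030) spans chr1:175445088-175447259 on the plus strand of Rnor6. The assemblies held transcripts there in controls 4 and 6 and diabetic 5, in each both on the gene's strand and off it (opposite or not assigned).

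Of the adrenomedullin receptor genes, Calcrl and Ramp1 separated the groups without passing the threshold. Calcrl, the receptor of adrenomedullin and calcitonin gene-related peptide (CGRP), stood at 238.7 to 297 CPM in control and 153 to 208 CPM in diabetic libraries, and all 4 diabetic values lay below all 5 controls. Its means were 272 ± 25.3 (SD, n = 5) and 178 ± 22.8 CPM (SD, n = 4), a difference of -0.61 (SE 0.16, unadjusted p = 0.000106, edgeR adjusted p = 0.0608). Calcrl missed the threshold, and it passed under 5 of 20 alternative settings, over which its adjusted p ran from 0.000224 to 0.374.

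Ramp1, the partner that turns Calcrl into the CGRP receptor, had 2 to 14 reads in control and 17 to 37 in diabetic libraries. Its levels were 0.683 ± 0.421 (SD, n = 5) and 2.64 ± 1.01 CPM (SD, n = 4), a difference of 1.88 (SE 0.60, edgeR adjusted p = 0.0991) with no overlap of the groups. Ramp1 passed the low-count filter through the diabetic libraries, where it was high, so its place among the tested genes depends on that group. Without a low-count filter the difference was 1.88 (edgeR adjusted p = 0.103). Ramp2, the partner for adrenomedullin, had 12 to 72 and 13 to 26 reads (-0.60, edgeR adjusted p = 0.466). The border macrophage share and the inner retinal neuron share were each higher in 3 of the 4 diabetic libraries than in any control. The part of these, or of neutrophil and monocyte RNA, in the Calcrl and Ramp1 values was not tested.

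Angpt2 was close to the limit of detection. It had 17, 28, 2, 2 and 0 reads in controls 1, 3, 4, 5 and 6 and 2, 1, 0 and 19 reads in diabetic 1, 2, 4 and 5, or 71 reads in all. Of its reads, all but 7 came from controls 1 and 3 and diabetic 5, at 1.61, 2.43 and 1.90 CPM. The 0 of control 6 allows a level of up to 0.387 CPM and that of diabetic 4 up to 0.478 CPM, by counting error alone. The authors' deposited table gave it a log2 fold change of -0.63 with an adjusted p of 0.819.

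The same 3 libraries had the largest shares of counts on endothelial markers. These were 0.0196% in control 1, 0.00980% in control 3 and 0.00623% in diabetic 5, against 0.00246% to 0.00437% in the other 6. The endothelial list does not hold Angpt2, which endothelial cells are known to make, and the part of endothelial RNA in its counts was not tested. The endothelial tight-junction gene Cldn5 had levels of 0.129 to 57.6 CPM in controls and 0.478 to 9.31 CPM in the diabetic group.

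**Figure D3:**
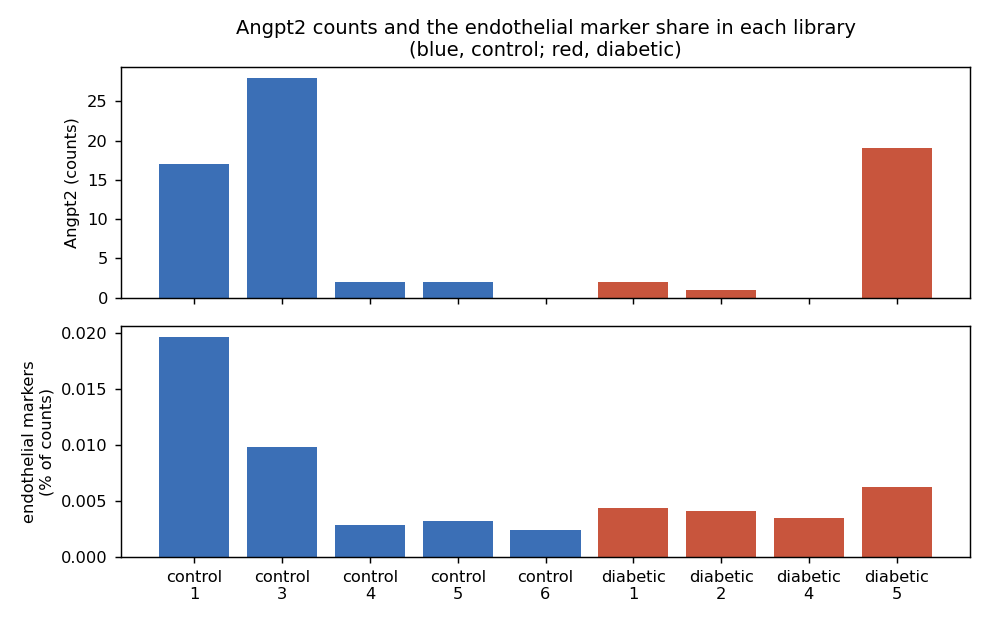
Reads of Angpt2 (upper bars, counts) and the share of all counts on 9 endothelial markers (lower bars, percent) in each control (blue) and diabetic (red) library. Controls 1 and 3 and diabetic 5 are the highest 3 libraries in both panels, with 17, 28 and 19 reads of Angpt2.

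Tek, the angiopoietin receptor, had 455 to 920 reads in control and 323 to 727 in diabetic libraries (-0.12, edgeR adjusted p = 0.624). Angpt4, another Tek ligand, stood at 87.1 ± 11.2 (SD, n = 5) and 103 ± 8.93 CPM (SD, n = 4), a difference of 0.25 (SE 0.12, unadjusted p = 0.0447, edgeR adjusted p = 0.252). Of the nitric oxide synthases other than Nos2, named after their values were seen, Nos1 had 1 read in all and the endothelial enzyme Nos3 had 0 to 73 and 1 to 21 (-0.75, edgeR adjusted p = 0.748). Slc7a2, which takes up the arginine that these enzymes use, stood at 7.26 ± 2.02 (SD, n = 5) and 4.18 ± 1.29 CPM (SD, n = 4), a difference of -0.78 (SE 0.32, unadjusted p = 0.0156, edgeR adjusted p = 0.173). Its highest values were in controls 6 and 4, and without them the difference was -0.51 (unadjusted p = 0.117, edgeR adjusted p = 0.448).

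Several factors were high or low in the same control libraries. The highest 2 control values of Vegfa, Vegfb, Pdgfa, Pdgfb, Edn1 and Adm were in controls 4 and 6, and control 5 held the lowest of Vegfa, Vegfb, Pdgfa, Pdgfb, Edn1 and Ece1. Nrp1 and Ece1 had their highest value in control 3 instead. The highest control exceeded the lowest 16.2-fold for Edn1, 17.7-fold for Adm and 5.28-fold for Vegfa, and 1.89-fold to 3.26-fold for the other 5. Among diabetic libraries the same ratio was 5.09 for Edn1, 2.43 for Adm and 2.72 for Vegfa. Whether the groups differ in spread was not tested.

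**Figure D4:**
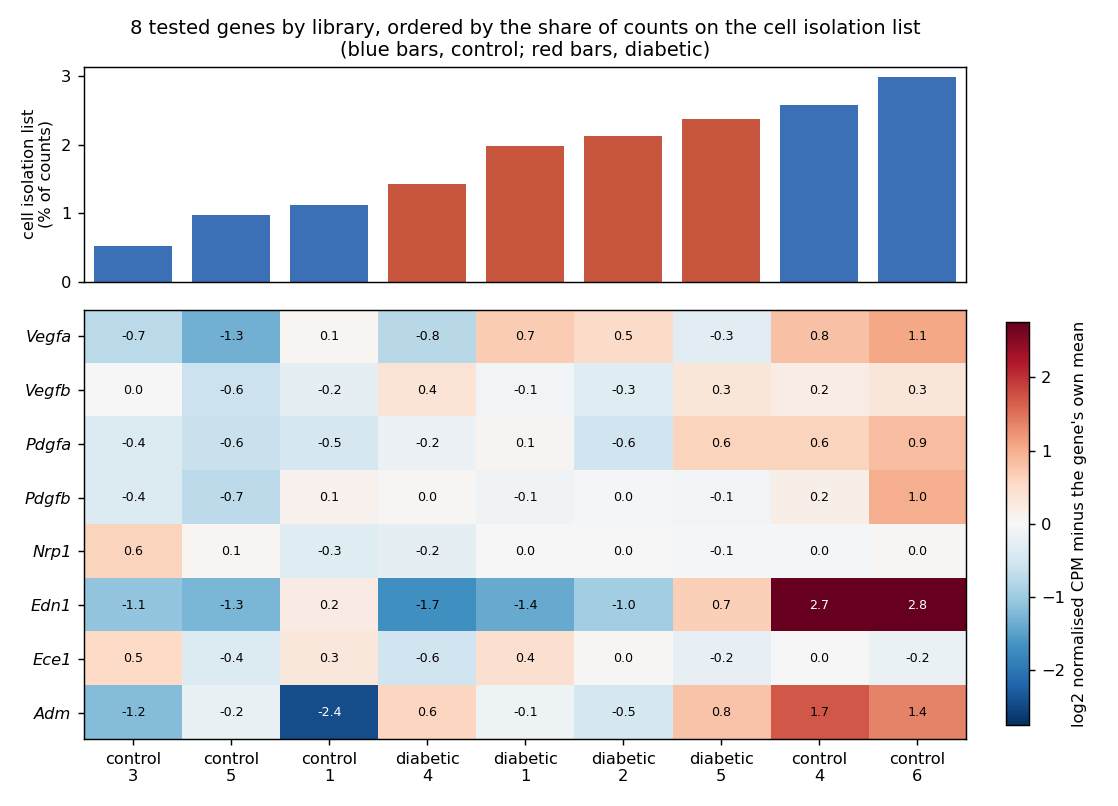
Share of counts on the cell isolation list (upper bars, percent; blue, control; red, diabetic) and, below in the same order of libraries, log2 normalised CPM of each tested factor minus its own mean over the 9 libraries (colour and printed value). Controls 4 and 6, at the right with 2.57% and 2.99%, hold the highest values of Edn1 and Adm, while the 4 diabetic libraries lie between the 2 sets of controls on the isolation list.

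Leaving out controls 4 and 6 changed the sign of the difference for Vegfa (0.71), Pdgfa (0.53), Pdgfb (0.23), Edn1 and Adm. It left that of Vegfb (0.35), Nrp1 (-0.25) and Ece1 (-0.24) as before. None of the 8 passed the adjusted threshold in that fit by edgeR, in which 0 of 11902 genes did, and 1 of the 8, Adm, had an unadjusted p under 0.05, against 14.9% of all genes.

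By a fixed measure of likeness, the mean absolute difference over the 9 libraries of log2 CPM centred on each gene's mean, the genes nearest to Edn1 were the chemokine Ccl9 (0.43), the scaffold protein Grasp (0.43) and the receptor kinase inhibitor Spry1 (0.44). Nearest to Adm were the stress cytokine Gdf15 (0.36), Phlda1 (0.36) and Rab11fip1 (0.39). Nearest to Vegfa were the actin bundler Espn (0.24), the cholesterol hydroxylase Ch25h (0.25) and Cplx2 (0.26). These distances describe the 9 libraries, which share the pattern of controls 4 and 6.

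Beyond the factors, 9 lists of related genes held 115 others, of which 105 had a count and 74 were tested. In edgeR's test 0 of the 74 passed the adjusted threshold. At an unadjusted p under 0.05, 5 were higher and 11 lower in diabetic libraries (21.6% together, against 18.9% of all tested genes). The groups did not overlap for 6 of them, or 8.11%, close to the 8.44% of all genes. These were Ramp1 and Tgfb2, higher, and Calcrl, P4ha1, Vhl and Hif1a, lower, and Ramp1 passed the low-count filter through its diabetic libraries. The median log2 difference was -0.15, with 28 genes above 0 and 46 below. DESeq2 called 6 of the 74, the likelihood-ratio test 3 and limma-voom 0. With the cell isolation share as a covariate 14 of the 74 passed, beside 13.8% of all tested genes. The 14 were Ramp1 and Tgfb2, higher, and Calcrl, Gch1, Hbegf, Hif1a, Hk2, Kdm3a, Ndrg1, Nrp2, P4ha1, Sema3c, Slc7a2 and Vhl, lower.

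The sensors and targets of HIF, the hypoxia-inducible factor that drives Vegfa, Edn1 and Adm when oxygen is low, had 25 tested genes with a median of -0.21. At an unadjusted p under 0.05, 2 were higher and 6 lower, 32% together against 18.9% of all tested genes (8.94% higher and 10% lower). The groups did not overlap for 3, or 12%, against 8.44% of all tested genes, and each was lower in diabetic libraries. They separated for P4ha1, a collagen prolyl hydroxylase (260 ± 54.8, n = 5, and 168 ± 19.0 CPM, n = 4, SD, difference -0.62, edgeR adjusted p = 0.0927). They also separated for Vhl, the ligase that marks HIF for degradation (113 ± 15.1 and 85.2 ± 5.77 CPM, -0.41, edgeR adjusted p = 0.109). Hif1a itself, named after its values were seen, stood at 252 ± 34.8 and 194 ± 18.3 CPM (SD, n = 5 and n = 4, difference -0.38, edgeR adjusted p = 0.125). The 2 higher genes, also named after the fact, were the glycolytic regulators Pfkfb3 (0.46, edgeR adjusted p = 0.229) and Pfkfb4 (1.17, edgeR adjusted p = 0.158). Control 6 was the highest control for P4ha1, Vhl and Hif1a. Without controls 4 and 6 their differences were -0.44, -0.32 and -0.26 (edgeR adjusted p = 0.147, 0.196 and 0.273). Those of Pfkfb3 and Pfkfb4 were then 0.70 and 1.39 (edgeR adjusted p = 0.140 and 0.237).

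**Figure D5:**
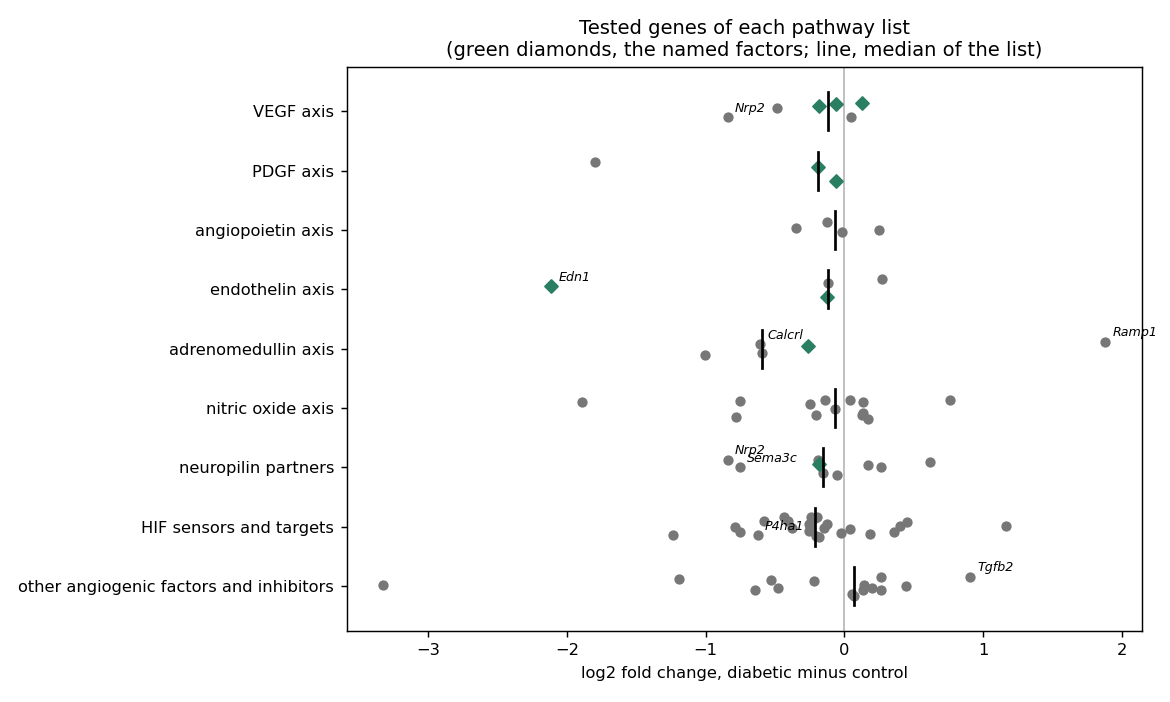
Log2 fold change, diabetic minus control (horizontal axis), of each tested gene in 9 lists of related genes (vertical axis), with the factors described here as green diamonds and each list's median as a line. Edn1 at -2.11 is the lowest of the 8 factors, Ramp1 at 1.88 is the highest gene shown, and the HIF list has its median at -0.21.

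Of the other lists, Tgfb2, a growth factor of the TGF-beta family, stood at 24.0 ± 3.14 (SD, n = 5) and 45.02 ± 18.9 CPM (SD, n = 4), a difference of 0.91 (SE 0.29, edgeR adjusted p = 0.0991). Its diabetic values ran from 34.2 to 73.3 CPM, above the highest control at 28.4 CPM, and without diabetic 1, the highest, the difference was 0.57. Diabetic 1 also had the largest border macrophage and inner retinal neuron shares, whose part in the Tgfb2 values was not tested. Col18a1, the source of the angiogenesis inhibitor endostatin, stood at 10.3 ± 1.90 (SD, n = 5) and 7.17 ± 1.89 CPM (SD, n = 4), a difference of -0.53 (SE 0.26, edgeR adjusted p = 0.244). Sema3c, a semaphorin that binds the neuropilins, stood at 96.8 ± 17.2 (SD, n = 5) and 57.3 ± 23.1 CPM (SD, n = 4), a difference of -0.75 (SE 0.29, edgeR adjusted p = 0.142). In 3 of the 4 diabetic libraries Sema3c lay below every control. Hbegf, a ligand of the EGF receptor named after its values were seen, had the lowest log2 difference on the lists at -3.33 (SE 1.83, edgeR adjusted p = 0.297). Its control values ran from 1.04 to 111 CPM with controls 6 and 4 the highest, as for Edn1, and its diabetic values from 0.638 to 9.21 CPM. Without controls 4 and 6 its difference was 0.06 (edgeR adjusted p = 0.981).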

How the data were processed

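RNA-seq of CD11b-sorted retinal microglia was analysed from 5 control and 4 diabetic libraries, grouped by title and treatment label. The authors deposited raw read counts per gene symbol, a table of their own log2 fold changes, p-values and adjusted p-values, and transcript assemblies, which were used for loci only. Per the submitters' processing notes, bcl2fastq 2.18.0.12, TopHat2 2.0.14, StringTie 1.2.4 and edgeR were used on Rnor_6.0. How reads were counted, and with which use of strand, is not given in the sources used here. All columns of per-sample values were used.

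Genes were filtered with filterByExpr (minimum count 10, minimum total 15), scaled by TMM and tested over all 11748 genes with the edgeR 4.0.16 quasi-likelihood test (robust, no covariates, R 4.3.3), with Benjamini-Hochberg adjustment and a threshold of 0.05. The SE was derived from the log2 fold change and the normal quantile of its p, and the 95% interval follows from it. limma 3.58.1 and DESeq2 1.42.0 served for alternatives. The comparison was tested on simulated data of 11579 genes, where 57 of 98 genes changed by 1 log2 unit and 83 of 96 changed by 2 were recovered, with 8 false calls. No pair of libraries agreed within sampling noise (chi-square per degree of freedom at least 11.7).

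The factors, the lists and the alternatives were chosen with earlier results of these data known. Named genes are all factors, their receptors, and of each list the genes past the threshold or else the 2 with the smallest unadjusted p under 0.05. For factors whose log2 CPM (prior count 2) had an SD over 0.75, the 3 nearest genes are named. Levels were not compared between genes, since the counts are not per length.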

Additional observations from a re-analysis of the deposited data

Results flagged for a closer look

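Edn1 stood at 8.11 CPM in diabetic 5, while the other 3 diabetic libraries lay between 1.59 and 2.66 CPM, and the gap to the nearest of them was 0.837 of the group's range. Angpt2 stood at 1.90 CPM in diabetic 5 against 0 to 0.198 CPM in the other 3, a gap of 0.896 of the range. Both passed the critical value of Dixon's test for an outlying sample. The test covered both groups of each of the 9 measured factors, and chance alone passes about 1 in 20 groups. Diabetic 5 had the largest share of counts on the cell isolation list (2.38%) and on endothelial markers (0.00623%) of the 4 diabetic libraries, and the part of either in the 2 values was not tested.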

How the results depend on the processing

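Each result was recomputed under 20 alternatives, 9 of which leave out 1 library. The count of factors past the threshold was 0 in 19 and 1 (Edn1) with the cell isolation covariate. Over all genes the count was 8, and it became 31 with upper-quartile factors (87.1% higher in diabetic, against 62.5%), 29 without factors (96.6% higher, median log2 fold change of all genes 0.12), 42 without a low-count filter, 5 with a CPM filter, 588 by DESeq2 (49.1% higher), 4 by limma-voom (50% higher), 171 by the likelihood-ratio test (79.5% higher), 1619 with the covariate (37.1% higher), 0 without controls 4 and 6, and 0 to 75 without 1 library (75 without control 1, 42.7% higher). Of the related genes, 1 passed without the filter, 6 by DESeq2, 3 by the likelihood-ratio test, 14 with the covariate, and 0 to 2 without 1 library.

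Vegfb and Nrp1 kept their sign in 20 of 20 alternatives, though some of these differences were very small. Nrp1 was -0.0019 with the replicate block and -0.014 without control 3, and Vegfb was 0.011 without control 5. Leaving out 1 library gave 0.011 to 0.24 for Vegfb and -0.27 to -0.014 for Nrp1. Edn1 kept its sign in all but 1, the fit without controls 4 and 6 (0.022). Upper-quartile factors, no factors and limma-voom turned Vegfa (0.038, 0.12 and 0.19) and Pdgfa (0.024, 0.090 and 0.053), and limma-voom turned Adm (0.43). Without controls 4 and 6, Vegfa was 0.71, Pdgfa 0.53, Pdgfb 0.23 and Adm 1.29. Leaving out 1 library gave -0.29 to 0.25 for Vegfa (above 0 without control 4, control 6, diabetic 4 or diabetic 5), -0.32 to 0.19 for Pdgfa (above 0 without control 4, control 6 or diabetic 2), -0.34 to 0.12 for Pdgfb (above 0 without control 6), -0.32 to 0.017 for Ece1 (above 0 without control 3, and 0.0098 without diabetic 4) and -0.56 to 0.28 for Adm (above 0 without control 4, and 0.04 without control 6). The cause of these turns was not tested.

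Numbers 1, 4 and 5 occur in both groups, and the correlations of same-numbered libraries were 0.20, -0.11 and 0.02, so the numbers were not taken as pairs. The replicate block gave 0 calls over all genes (1129 at an unadjusted p under 0.05) and turned Vegfa (0.055), Pdgfa (0.34), Pdgfb (0.096) and Adm (0.54). The 2 alternatives on log2(TPM) were not run, since reference transcripts covered 3 of the 10 factors. Low counts limit Adm and Angpt2 most.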
